A study of Mus musculus with 20 samples.

Results

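The earliest transcriptional difference between SCA3 knock-in and WT/WT cerebellum was examined in mice of 2 months, with 5 304Q/304Q and 5 WT/WT animals among the 20 libraries of the series. Every gene with a mean of at least 50 counted reads over these 10 libraries was a member of the comparison, which left 12253 of the 29200 genes in the deposited table. Sdhaf1, exactly at the limit, was the last gene inside and Gm19196 (mean 49.9 reads) the first outside it. All mice were of the strain C57BL6/N. The 304Q/304Q mice carried an expanded, interrupted CAACAG repeat (304 repeats by the labels) in both copies of murine Atxn3, introduced with zinc-finger nucleases into the endogenous gene and kept as a line from a single founder, so that the expanded protein was made under the gene's own promoter in every cell that uses it. The WT/WT mice carried the ordinary repeat on both alleles and were littermates of the knock-in animals. Where the sample labels name ataxin-2 for the wild-type alleles and a plain CAG repeat for the knock-in, the study's methods were followed. Mice of 12 months, 5 of each genotype, were other animals and served here to follow the 2-month genes. Sex was not given in the labels, but the study states that the sequenced mice were all male. All 10 libraries of 2 months held Y-linked transcripts (between 688 and 988 normalized counts of Ddx3y) with at most 4.67 normalized counts of Xist, the transcript of inactive X chromosomes.

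Spinocerebellar ataxia type 3 is caused by an expanded polyglutamine stretch in ataxin-3, a deubiquitinase that trims ubiquitin chains and takes part in the delivery of proteins to the proteasome. The cerebellum, among the regions affected, is built from Purkinje cells, a very large number of granule cells, inhibitory interneurons, Bergmann glia and other astrocytes, and from oligodendrocytes that wrap the axons of its white matter in myelin. The methods of the study class the 2-month mice as pre-symptomatic, so the comparison asks which transcripts differ first.

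The stretch of Atxn3 that was altered is shown first because the whole design rests on it. In the protein-coding transcript Atxn3-201 of the GENCODE M21 annotation, the ordinary mouse repeat consists of 6 glutamine codons, 1 CAA followed by 5 CAG, in frame at the start of exon 10 of 11. It lies at chr12:101926563-101926580 of GRCm38 on the minus strand. The spliced transcript around it reads as follows, with the repeat in capitals.
Atxn3-201: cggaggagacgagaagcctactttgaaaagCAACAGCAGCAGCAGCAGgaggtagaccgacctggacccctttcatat
In the knock-in, the expanded repeat stands in place of the capitals. Reads that lie wholly inside the inserted repeat have no counterpart in the reference genome, and counts per gene do not tell expanded from ordinary transcripts. What part this had in the values of Atxn3 was not tested.

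Atxn3 (chromosome 12, from 101918901 to 101958246) was measured at 312, 333, 241, 264 and 239.8 normalized counts in the 5 WT/WT mice. The 304Q/304Q mice gave 158, 189.7, 175, 194 and 241 normalized counts. Normalized counts are reads per gene scaled to the mean library size. Of the 5 knock-in mice, 4 lay below all WT/WT mice and the remaining animal, replicate 5, lay among them, so the groups overlapped. The log2 fold change was −0.54 (standard error 0.115, 95% interval −0.78 to −0.30). Adjusted over all 12253 genes (Benjamini-Hochberg), the p of edgeR's quasi-likelihood test was 0.0949. It was 0.00733 by DESeq2, 0.0348 by edgeR with the trend on GC content removed, and 0.0187 without knock-in replicate 5. Atxn3 passed in 4 of 33 alternative analyses, and DESeq2 with surrogate variables gave it no adjusted p (log2 fold change −0.49). Its adjusted p ran up to 0.438 (without WT/WT replicate 2), with 0.396 in the 10 libraries of 2 months alone. At 12 months the 2 genotypes had 222 ± 16.3 and 203 ± 17.5 normalized counts (SD, n = 5), a log2 fold change of −0.13 with an adjusted p of 0.50. The difference between the ages was itself not past the threshold (adjusted p of the interaction 0.225). Of the other 5 tested genes that lie within 500 kb of Atxn3, chosen after the values were seen, 4 were lower and 1 higher, their log2 fold changes ran from −0.11 (Trip11, which codes for a Golgi protein) to 0.06 (Ndufb1-ps), and the smallest unadjusted p was 0.247.

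The 10 libraries held between 12695367 and 27636687 counted reads, and only the first 304Q/304Q library exceeded 16606406. Markers of Purkinje cells, granule cells, astrocytes, myelinating oligodendrocytes and endothelial cells were all above the limit (24 of 24, 20 of 20, 25 of 25, 25 of 25 and 20 of 20), as the labelled tissue should have them. The third 304Q/304Q library stood apart by choroid plexus transcripts: Ttr, the transthyretin of that tissue, was at 23173 normalized counts there and between 14.9 and 268 in the other 9 libraries. The first principal component (32.3% of the variance) did not follow the genotype. WT/WT replicates 1 to 3 and 304Q/304Q replicate 5 had positive scores, the other 6 libraries negative ones, and the same libraries differed in how their counts depended on GC content, from −0.22 to −0.10 (median log2 deviation of the GC-richest of 5 equal bins of genes minus that of the GC-poorest) in the first 3 WT/WT libraries and −0.20 in that knock-in library against −0.01 to 0.24 in the others. Comparisons that move with this axis are given below with these values.

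Few single genes passed the test at this age. Only Igfbp5 was a DEG (adjusted p up to 0.05 together with a log2 difference of 0.5 or more in either direction), which is 0.00816% of the genes tested. The adjusted p alone was met by 6 genes (0.049%), of which Igfbp5, Mal, Chn2, Nab2 and Pex5l fell and Calb2 rose in 304Q/304Q mice. DESeq2's Wald test called 22 genes (0.18%), 16 lower and 6 higher, and all 6 were among them. An unadjusted p under 0.05 was found for 669 genes (5.46%), 309 higher (2.52%) and 360 lower (2.94%), close to what such a threshold passes by itself when nothing differs. In 129 genes (1.05%) the values of the 2 groups did not overlap, 58 of them higher (0.473%) and 71 lower (0.579%) in 304Q/304Q mice.

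The data were precise enough to bound what was not called. The standard error of the log2 fold change had a median of 0.0967 over all genes, and the 95% interval reached a median of 0.200 to either side. For 86.2% of genes this interval lay wholly within a log2 fold change of 0.5 in either direction and for 99.3% within 1. The share within 0.5 depended on the level of expression and was 64.1% in the third of genes with the lowest counts and 97.9% in the third with the highest. In simulated counts with these library sizes, 50 genes each were changed by 0.3, 0.5, 0.8 or 1.2 on the log2 scale. Of these, edgeR called 38 of 50 at 0.5 but 11 of 50 at 0.3. More genes passed there than the 6 in the mice, which makes the adjusted p easier to meet. Each gene was also drawn independently, without the axis of the first principal component, so these shares may be too high for the mice. Effects of about 0.3, which many of the genes described below have, were therefore often below the threshold for a single gene.

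**Figure D1:**
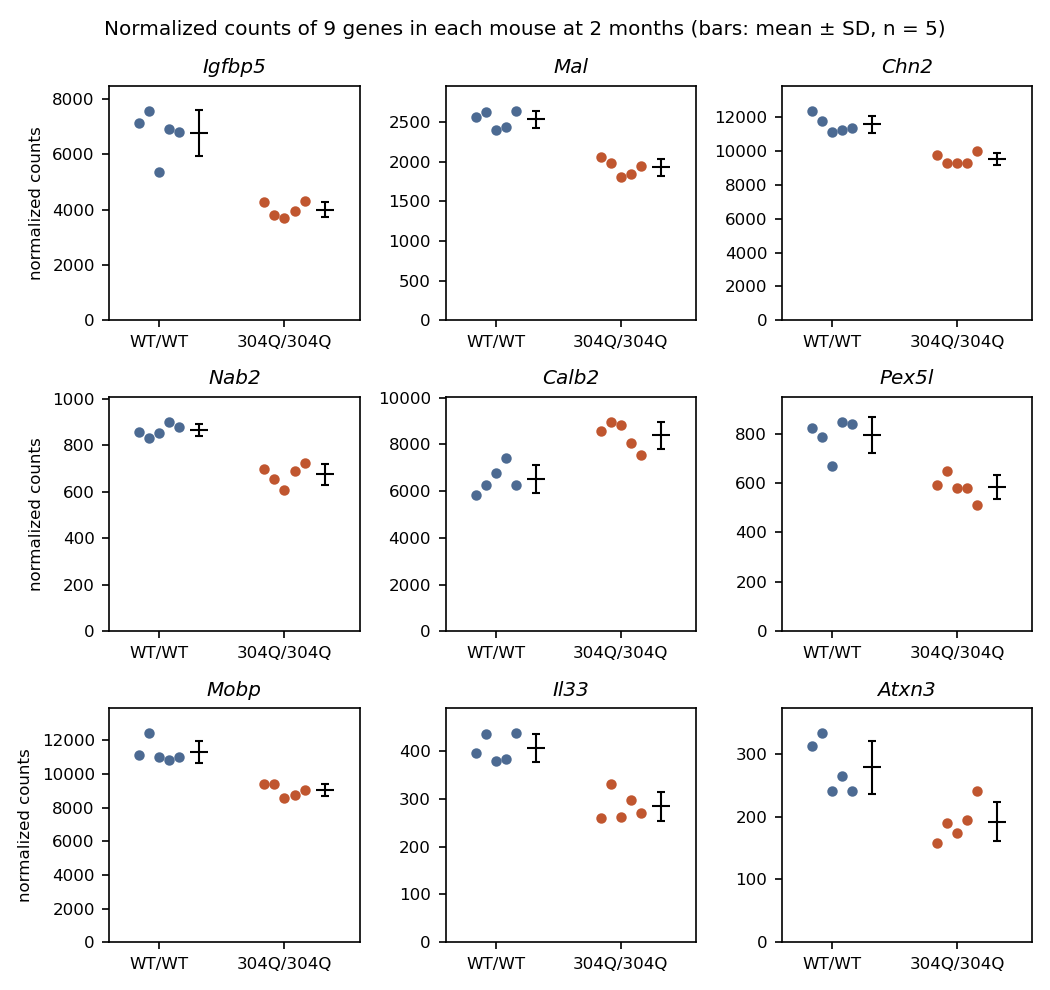
Normalized counts (vertical axes, starting at 0) of 9 genes in each of the 5 WT/WT (blue) and 5 304Q/304Q mice (red) at 2 months, with mean and SD beside the points. The 2 groups are separate for Igfbp5, Mal, Chn2, Nab2, Calb2, Pex5l, Mobp and Il33 and overlap for Atxn3, where 1 knock-in mouse reached 241.

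Igfbp5 codes for a secreted protein that binds insulin-like growth factors and the extracellular matrix and so sets how much of the growth factor reaches its receptor. It is a protein-coding gene on the minus strand of chromosome 1 (72857932 to 72874884). The WT/WT mice had 7135, 7555, 5349, 6919 and 6805 normalized counts. In the 304Q/304Q mice 4264, 3810, 3686, 3954 and 4302 normalized counts were found. Every knock-in mouse lay below every WT/WT mouse, and the gap between the groups was wider than the spread within the knock-in group. Igfbp5 decreased by 40.7% (log2 fold change −0.75, standard error 0.0705, adjusted p 1.71e-06 by edgeR's quasi-likelihood test). Its call was kept in 33 of 33 alternative analyses, in which the log2 fold change lay between −0.83 and −0.71. In the 12-month mice the level was 6004 ± 308 in WT/WT and 2236 ± 127 in 304Q/304Q (SD, n = 5), a log2 fold change of −1.42, and the interaction of genotype and age (−0.67) had an adjusted p of 0.000433.

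The other 13 tested genes of the IGF axis did not pass the test. With Igfbp5 included, 4 of 14 were higher and 10 lower, and the list's median log2 fold change was −0.08 beside 0.00 over all genes. At an unadjusted p under 0.05, 3 were lower, Igfbp5 itself among them (2.94% of all genes). Irs2, which carries the signal of insulin and IGF receptors into the cell, had a log2 fold change of −0.27 (unadjusted p 0.0101). Pappa, a protease that cleaves IGF binding proteins, had −0.66 (unadjusted p 0.0253) at 126 ± 45.8 normalized counts in the WT/WT and 78.6 ± 21.05 in the knock-in mice. The receptor Igf1r (−0.22), the ligand Igf1 (−0.14) and the binding proteins Igfbp3 (−0.03), Igfbp4 (−0.05), Igfbp6 (0.05) and Igfbp7 (0.04) had unadjusted p-values of 0.0668 or more. The number lower at an unadjusted p under 0.05 was 1 without WT/WT replicate 1 and 5 without 304Q/304Q replicate 5, with 2 to 4 without any other library of 2 months; 2 was reached without 304Q/304Q replicates 3 and 4.

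The promoters of Igfbp5 and of the myelin genes Mal and Mobp are printed here because Igfbp5 had the smallest p of all genes and Mal and Mobp were both lower. Each is the RefSeq window of 300 bases on GRCm38.p6, 250 before to 50 after the transcription start, in the direction of transcription. Capitals mark ACAAAG or its reverse complement CTTTGT, the core bound by SOX factors, a family to which the oligodendrocyte regulator Sox10 belongs.
Igfbp5, chr1:72874816-72875115, minus strand: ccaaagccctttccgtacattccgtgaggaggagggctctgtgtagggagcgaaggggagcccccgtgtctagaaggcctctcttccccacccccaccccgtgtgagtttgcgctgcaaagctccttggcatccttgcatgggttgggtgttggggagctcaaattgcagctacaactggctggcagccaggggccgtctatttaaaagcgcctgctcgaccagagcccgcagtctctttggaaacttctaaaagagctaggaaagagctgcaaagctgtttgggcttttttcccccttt
Mal, chr2:127656646-127656945, minus strand: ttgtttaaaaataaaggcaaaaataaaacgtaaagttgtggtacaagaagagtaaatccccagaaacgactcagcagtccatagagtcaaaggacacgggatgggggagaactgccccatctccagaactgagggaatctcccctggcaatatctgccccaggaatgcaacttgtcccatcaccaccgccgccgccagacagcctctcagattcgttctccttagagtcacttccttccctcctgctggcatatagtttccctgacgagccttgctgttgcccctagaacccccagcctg
Mobp, chr9:120149492-120149791, plus strand: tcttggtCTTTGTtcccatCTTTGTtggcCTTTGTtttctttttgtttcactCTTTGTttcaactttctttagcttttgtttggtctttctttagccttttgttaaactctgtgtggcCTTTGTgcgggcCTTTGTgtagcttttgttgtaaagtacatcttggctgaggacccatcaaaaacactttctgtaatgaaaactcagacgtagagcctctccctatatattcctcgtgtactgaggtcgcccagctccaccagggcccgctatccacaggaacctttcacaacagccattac
The Mobp window held 6 copies of CTTTGT and none of ACAAAG, and the other 2 windows held neither. Of all 32851 promoter windows in the RefSeq table, 18.7% held the motif on either strand, as did 13.0% of the 9496 windows of tested genes. Of the 17 windows found for genes on the myelinating oligodendrocyte list 6 did (35.3%). A match describes letters in this window and not a bound site.

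Of the 40 lists examined, that of myelinating oligodendrocytes held the most genes lower at an unadjusted p under 0.05. Mal, a membrane proteolipid of myelin (chromosome 2), had 2565, 2631, 2404, 2431 and 2636 normalized counts in WT/WT mice. The 304Q/304Q mice had 2059, 1988, 1806, 1841 and 1944. No knock-in value reached the lowest WT/WT value, and Mal fell by 0.39 on the log2 scale, with a standard error of 0.0611 (edgeR's adjusted p 0.00671). Mobp, the myelin-associated oligodendrocyte basic protein (chromosome 9), had 11149, 12433, 11021, 10809 and 11026 normalized counts in the WT/WT group and 9384, 9385, 8597, 8748 and 9041 in 304Q/304Q mice. Its groups were also separate, with a log2 fold change of −0.32 and an adjusted p of 0.0647 by edgeR and 0.00524 by DESeq2. Exons of Mobp overlap the gene model Gm38642 on the same strand, so its count is uncertain to the extent that reads were split between them. For Car2, the carbonic anhydrase of oligodendrocytes, 1932, 2260, 1728, 2205 and 2045 normalized counts were found in WT/WT and 1520, 1762, 1643, 1659 and 1489 in 304Q/304Q mice. Only the second knock-in mouse overlapped with the WT/WT range (log2 fold change −0.33, adjusted p 0.0596 by edgeR and 0.00387 by DESeq2).

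Of the 25 listed markers of myelinating oligodendrocytes, all tested, 17 were lower and 8 higher, 11 were lower and none higher at an unadjusted p under 0.05 (2.94% and 2.52% of all genes), and 4 were lower without overlap between the groups (0.579% of all genes), among them Mal, Mobp and Fa2h. Fa2h, which makes the hydroxylated fatty acids of myelin lipids, had −0.18. Further members with an unadjusted p under 0.05 were Klk6 (−0.40), Aspa (−0.46), Ugt8a (−0.30), Ermn (−0.24), Tspan2 (−0.22), Mbp (−0.18) and Car2. The median over the list was −0.06. It ran from −0.14 without WT/WT replicate 1 to −0.02 without WT/WT replicate 4 when 1 library was left out, and was −0.19 with surrogate variables. Other defining markers of the same cells had differences near 0, among them Cnp (−0.05), Mag (−0.05), Mog (0.05), Gjb1 (0.03) and the lineage regulator Sox10, at 678 ± 110 and 680 ± 77.1 normalized counts. Fewer oligodendrocytes cannot be told apart from less RNA of certain genes per cell in whole tissue.

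Enpp2, on the same list, had the highest log2 fold change (0.92), and this came from the third 304Q/304Q library, at 10604 normalized counts against 1662 to 2178 in the other 9; choroid plexus also makes this enzyme. Without Enpp2 the median over the remaining 24 genes was −0.09. Without that library 8 members were lower and 1 higher at an unadjusted p under 0.05, and 7 were lower without WT/WT replicate 2 or 304Q/304Q replicate 4, the lowest number when any 1 library was left out. Structural myelin proteins as a narrower list gave 10 of 14 lower, 4 of them at an unadjusted p under 0.05 (2.94% of all genes). Their mean in each mouse lay from −0.03 to 0.05 in WT/WT and from −0.13 to −0.03 in 304Q/304Q mice (log2, against the WT/WT mean). These 2 ranges met without overlap, the highest knock-in mean at −0.035 and the lowest WT/WT mean at −0.033. Among precursors and newly formed oligodendrocytes 11 of 19 markers were higher and 8 lower, and the median was 0.02. At an unadjusted p under 0.05, 1 was higher (2.52% of all genes), Cacng4, an AMPA receptor auxiliary subunit (0.16). Genes of cholesterol synthesis and uptake, on which myelin depends, were higher in 17 of 25 cases, with a median of 0.03. At an unadjusted p under 0.05, 3 were higher (2.52% of all genes), namely Tm7sf2 (0.35), Lss (0.17) and Srebf2 (0.13). That number ran from 1 to 4 when 1 library was left out.

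In the 12-month mice the oligodendrocyte list lay lower. Of the 11 oligodendrocyte markers with an unadjusted p under 0.05 at 2 months, 11 were lower at 12 months too and 8 of them passed the adjusted p there. Of the other 14, 13 were lower and 1 passed. Over all 12253 genes, 922 were lower at an adjusted p of at most 0.05 at that age. The median of the list was −0.30 at 12 months. The difference for Mobp was larger at the later age, −0.81 against −0.32 (adjusted p of the interaction 0.00472), whereas for Mal (−0.62 against −0.39) the interaction had an adjusted p of 0.208.

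**Figure D2:**
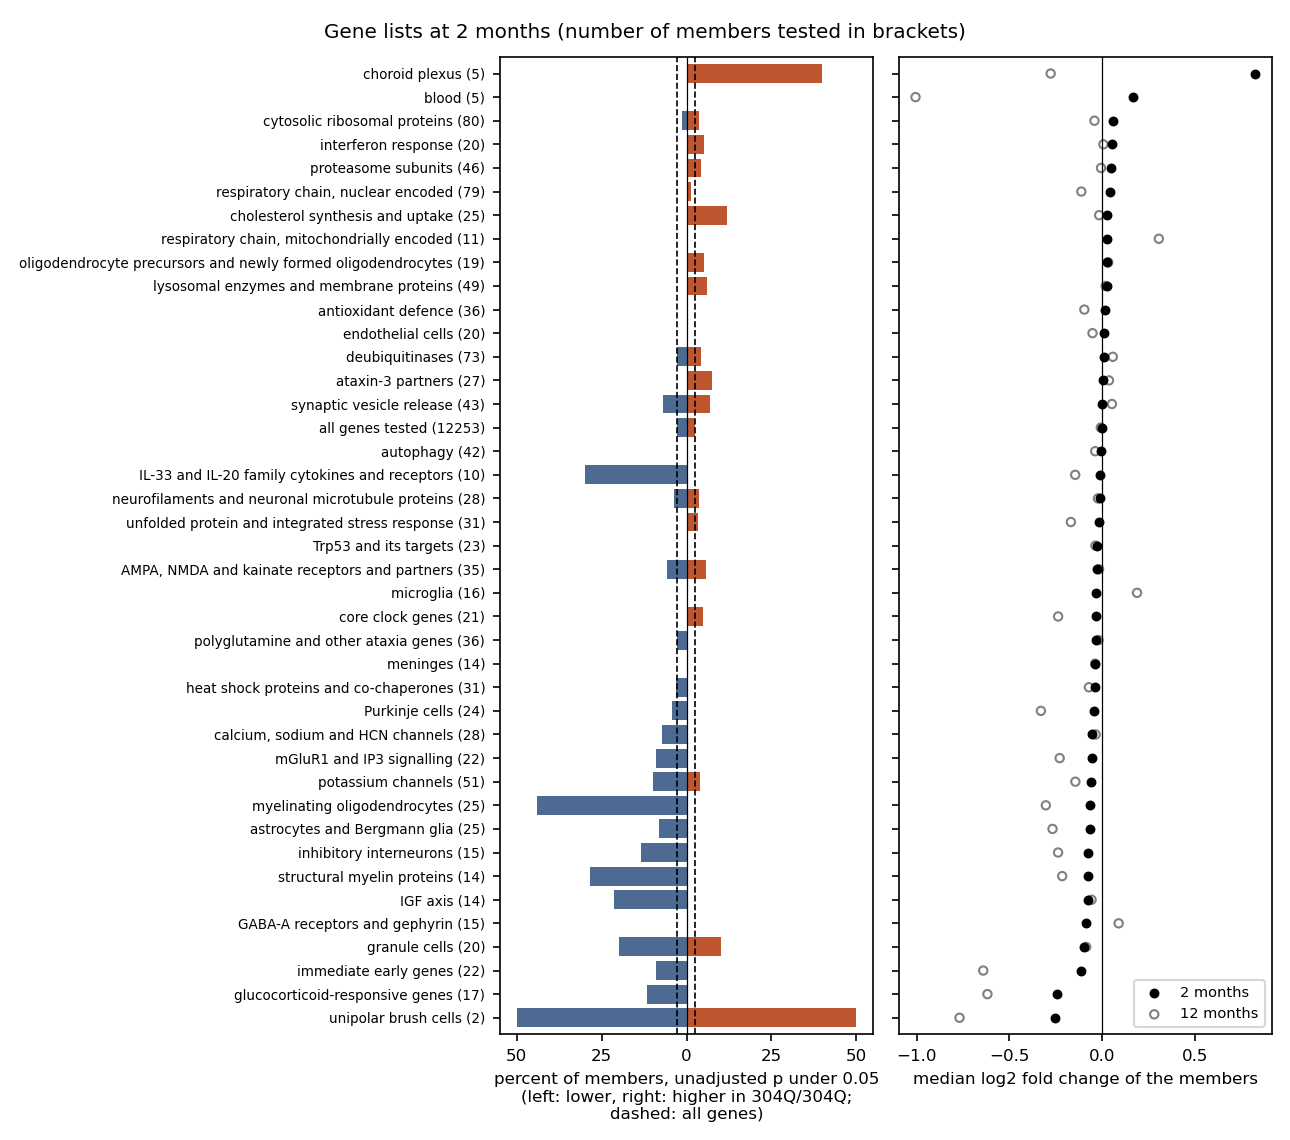
Percent of the members of 40 gene lists with an unadjusted p under 0.05 at 2 months, lower (blue, to the left) or higher (red, to the right) in 304Q/304Q mice, with dashed lines at the 2.94% and 2.52% of all genes tested, and the median log2 fold change of each list at 2 months (filled) and 12 months (open circles). The myelinating oligodendrocyte list has 11 of 25 members on the lower side, and the choroid plexus list, with 5 members, stands out through 1 library.

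Among the genes of granule cells, the most numerous neurons of the cerebellum, Chn2 fell. Chn2 codes for beta-chimaerin, which switches off the small GTPase Rac, and lies on chromosome 6. Its normalized counts were 12333, 11738, 11104, 11227 and 11362 in WT/WT and 9775, 9258, 9299, 9284 and 9972 in 304Q/304Q mice. The groups were far apart relative to their spread (log2 fold change −0.28, standard error 0.0443, adjusted p 0.00671 by edgeR). At 12 months the log2 fold change was again −0.28. Some exons of Chn2 lie opposite 9130019P16Rik and Gm15527 on the other strand, and the sources used here do not say whether reads were counted by strand.

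The granule cell list as a whole had 17 of 20 members lower and 3 higher, 4 lower and 2 higher at an unadjusted p under 0.05 (2.94% and 2.52% of all genes), and a median of −0.10. Fat2, a giant cadherin of parallel fibres, had 14160, 13185, 13180, 13868 and 13819 normalized counts in the WT/WT group and 12060, 12510, 10197, 10536 and 10595 in 304Q/304Q mice. These values did not overlap either (log2 fold change −0.29, unadjusted p 0.000528 by edgeR). The glutamate receptor Grm4 (−0.29) and the synaptic organiser Cbln3 (−0.14) were the other members lower at an unadjusted p under 0.05, and Cadps2 (0.17) and Pax6 (0.15) were the higher ones. The 4 lower members became 8 without 304Q/304Q replicate 5. Neurod2 (−0.03), Slc17a7 (−0.01), Zic2 (−0.01) and Gabrd (−0.02) lay near 0. The mean of the list was between −0.03 and 0.03 in the WT/WT mice and at −0.09, −0.14, −0.15, −0.06 and −0.003 in 304Q/304Q replicates 1 to 5, so that 4 of the 5 knock-in mice lay below the WT/WT range. The median at 12 months was −0.09.

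Calb2 rose. It codes for calretinin, a calcium-binding protein of granule cells and unipolar brush cells, and lies on chromosome 8. The WT/WT mice had 5821, 6283, 6775, 7426 and 6275 normalized counts and the 304Q/304Q mice 8585, 8957, 8813, 8079 and 7543. The lowest knock-in value was just above the highest WT/WT value (log2 fold change 0.37, standard error 0.0628, adjusted p 0.0134 by edgeR). The call was kept in 25 of 33 alternative analyses. It was lost in the 10 libraries of 2 months alone (adjusted p 0.0763), with the replicate block (0.101), and without WT/WT replicate 1, 2 or 5 or 304Q/304Q replicate 1, 2 or 3 (0.0516 to 0.0961). The difference was 0.53 at 12 months. Eomes, a transcription factor that marks unipolar brush cells, went the other way with a log2 fold change of −0.88 (unadjusted p 0.0248), but its WT/WT values spread from 253 to 1362 normalized counts and held all knock-in values (284 to 583) between them.

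Purkinje cell markers differed little at 2 months. Of 24 markers 18 were lower and 6 higher, and the median was −0.04 with a range of −0.21 (Foxp2) to 0.07 (Lhx5). At an unadjusted p under 0.05, 1 was lower (2.94% of all genes), Kcnma1, a calcium-activated potassium channel (−0.15). Kcnma1 was at 5596 normalized counts in 304Q/304Q replicate 5, above WT/WT replicates 4 and 5 (5014 and 4829). Itpr1, the IP3 receptor that releases calcium in Purkinje cells, had −0.13 at 44900 ± 3525 and 41067 ± 2845 normalized counts. Pcp2 (0.06), Calb1 (−0.05) and Car8 (−0.12) did not pass even without adjustment. At 12 months the median of the same list was −0.33 and 20 of 24 were lower at an adjusted p of at most 0.05, beside 922 of all 12253 genes. Genes of mGluR1 and IP3 signalling, several of them shared with that list, were lower in 18 of 22 cases. Of these, 2 had an unadjusted p under 0.05 (2.94% of all genes were lower at that p), Atp2a2 (−0.13) and Kcnma1. Of the 15 inhibitory interneuron markers 9 were lower, and Gad1, which makes GABA, did not overlap between the groups (7467 to 7720 in WT/WT and 7043 to 7277 in 304Q/304Q mice) at a log2 fold change of only −0.09.

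Channel and synapse genes held further separate groups. Pex5l (TRIP8b), which governs the trafficking of HCN channels, was the sixth gene past the adjusted p. The WT/WT mice had 824, 787, 671, 846 and 838 normalized counts and the 304Q/304Q mice 591, 649.6, 582, 581 and 512. The values did not overlap (log2 fold change −0.45, standard error 0.0843, adjusted p 0.0425 by edgeR), and the call was kept in 15 of 33 alternative analyses. Scn4b, the beta4 sodium channel subunit, had 1532 to 1663 normalized counts in the WT/WT group and 1272 to 1450 in 304Q/304Q mice (log2 fold change −0.20, unadjusted p 0.000502). Of 51 potassium channel genes 34 were lower and 17 higher, with 5 lower and 2 higher at an unadjusted p under 0.05 (2.94% and 2.52% of all genes). The number lower was 2 without 304Q/304Q replicate 3, 3 without WT/WT replicate 1 and 8 without WT/WT replicate 4 or 5.

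Several adhesion and synaptic genes were called by DESeq2 but not by edgeR. Clstn2, a calsyntenin of the postsynaptic membrane, had 1036, 825, 751, 867 and 814 normalized counts in the WT/WT group and 655, 749, 606, 668 and 621 in 304Q/304Q mice. The groups nearly touched (log2 fold change −0.38, adjusted p 0.103 by edgeR and 0.0111 by DESeq2). Syndig1l, related to the AMPA receptor partner Syndig1, was higher by 0.54 (adjusted p 0.163 and 0.0145), with 239 to 357 normalized counts in the WT/WT group and 367 to 495 in 304Q/304Q mice. Sez6, a synaptic membrane protein, was higher by 0.24 (0.0753 and 0.00447), with 2288 to 2572 and 2739 to 2933. Robo1, a receptor for the guidance protein Slit, was higher by 0.41 (0.154 and 0.0198), with 335 to 414 and 461 to 608, and Fxyd6, a regulator of the sodium pump, by 0.34 (0.103 and 0.0111), with 909 to 1170 and 1299 to 1419. Nrep, a regeneration-related protein of neurons, was lower by a log2 fold change of −0.25 (0.125 and 0.0225), and its groups were close to each other, with 13605 normalized counts as the lowest WT/WT and 13547 as the highest knock-in value. As whole lists, AMPA, NMDA and kainate receptors (16 of 35 higher), GABA-A receptors (11 of 15 lower, none at an unadjusted p under 0.05) and synaptic vesicle genes (21 of 43 higher) had medians of −0.03, −0.09 and −0.0006.

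Nab2 fell and belongs to the regulators of transcription. It codes for a corepressor of the EGR factors that answer neuronal activity and growth signals, and several genes lie opposite its exons (Stat6, Nemp1 and Gm16229). The WT/WT mice had 857, 832, 854, 899 and 880 normalized counts and the 304Q/304Q mice 696, 657, 608, 691 and 726. The groups were wide apart (log2 fold change −0.35, standard error 0.0579, adjusted p 0.00799 by edgeR). The call was lost without 304Q/304Q replicate 3 (0.0593), with the replicate block (0.0690) and in the 10 libraries of 2 months alone (0.0763). At 12 months it was −0.70, and the interaction had an adjusted p of 0.0264. Plk5, a neuronal member of the polo-like kinases without a role in cell division, had 982 to 1267 normalized counts in the WT/WT group and 813 to 976 in 304Q/304Q mice (−0.36, adjusted p 0.125 by edgeR and 0.0174 by DESeq2). Its difference was −1.39 at 12 months, the interaction having an adjusted p of 3.48e-05.

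Among glial and immune genes, Il33 and Il20rb had separate groups. Il33, an alarmin cytokine made by glia of the central nervous system (chromosome 19), had 396, 435, 378, 382 and 437 normalized counts in the WT/WT group and 260.1, 330.2, 261, 298 and 269 in 304Q/304Q mice. The log2 fold change of −0.52 (edgeR's adjusted p 0.0647, DESeq2's 0.00387) became −0.53 at 12 months. Il20rb, a receptor subunit for cytokines of the IL-20 family (chromosome 9), had 507, 519, 391, 531 and 456 normalized counts in the WT/WT group and 353, 204, 367, 362 and 339 in 304Q/304Q mice. Its difference was −0.56 (0.233 and 0.0225) and reached −1.89 at 12 months (adjusted p of the interaction 0.000433). The other 8 tested members of this cytokine list gave 5 higher and 3 lower values, with Il1rap, the shared receptor chain for IL-1 and IL-33, at −0.26 (unadjusted p 0.0338). Il1rap was at 327 normalized counts in 304Q/304Q replicate 5, above WT/WT replicates 4 and 5 (282 and 288).

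Astrocyte genes were lower in 17 of 25 cases with a median of −0.07. Glul, the glutamine synthetase with which astrocytes clear glutamate, had 17484, 17372, 15192, 15645 and 15891 normalized counts in the WT/WT group and 15226, 13687, 13707, 13728 and 13391 in 304Q/304Q mice. The first knock-in library, the deepest of all, was the only one to reach the WT/WT range (log2 fold change −0.23, adjusted p 0.0647 by edgeR and 0.00733 by DESeq2), and the call was made by edgeR when that library was left out. Ndrg2 (−0.10) was the other member lower at an unadjusted p under 0.05 (2.94% of all genes). Microglial markers were lower in 12 of 16 cases and none passed an unadjusted p under 0.05, C1qa, a complement component, being the nearest (−0.21, unadjusted p 0.0703). Their median was −0.03 at 2 months and 0.19 at 12 months. Interferon response genes had 1 member higher at an unadjusted p under 0.05 (2.52% of all genes), the RNA sensor Ifih1 (0.60), and 16 of 20 members higher. This was 10 of 20 without WT/WT replicate 1 (median 0.0006) and 17 of 20 without WT/WT replicate 3 (median 0.11, against 0.05 with all libraries).

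**Figure D3:**
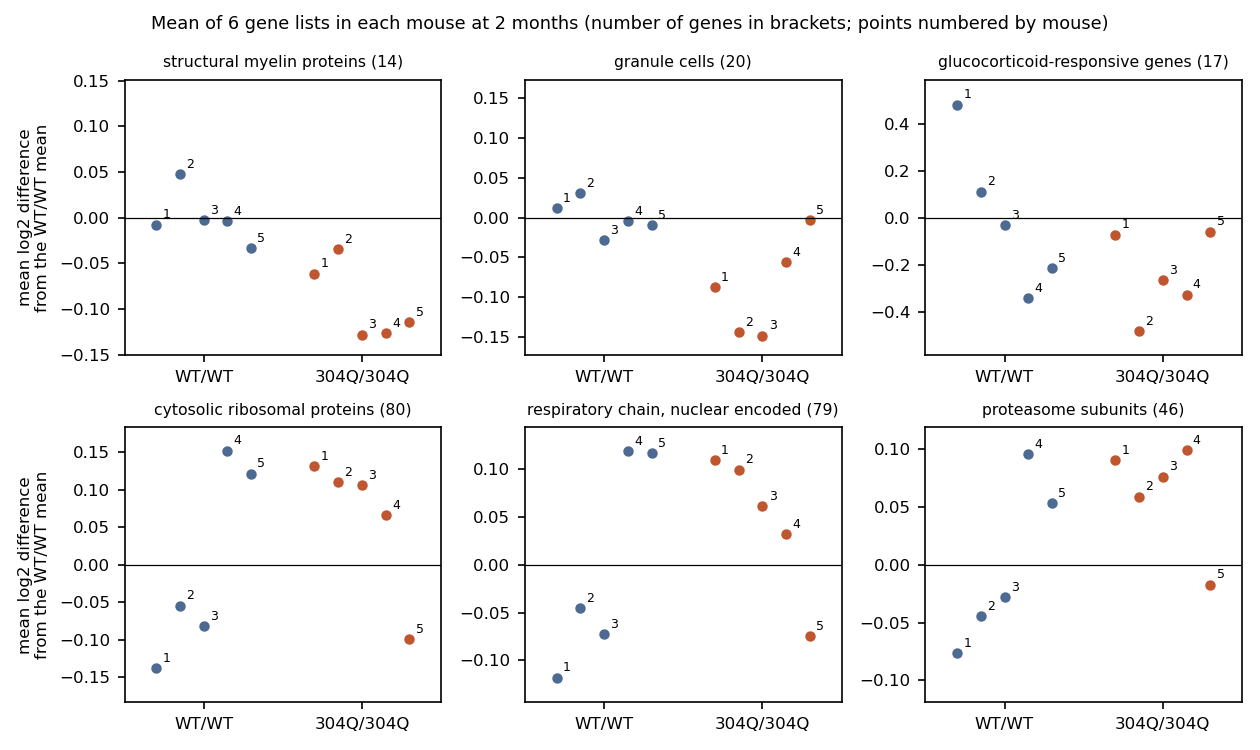
Mean log2 difference from the WT/WT mean over the members of 6 gene lists, for each mouse at 2 months (vertical axes differ between panels, points carry the replicate number). The structural myelin means of the knock-in mice all lie below those of the WT/WT mice, while for ribosomal proteins and the respiratory chain WT/WT replicates 1 to 3 and 304Q/304Q replicate 5 lie low and all other mice high.

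Genes of protein and energy turnover were mostly higher, by very small amounts. Of 80 cytosolic ribosomal proteins 64 were higher and 16 lower, with a median of 0.06. At an unadjusted p under 0.05, 3 were higher and 1 lower (2.52% and 2.94% of all genes). For 46 proteasome subunits these numbers were 39, 7, 2 and 0, with a median of 0.05, and for 79 nuclear-encoded genes of the respiratory chain 61, 18, 1 and 0, with a median of 0.04. Over all genes 48.8% were higher, so the split was uneven, but it did not follow the genotype mouse by mouse. The ribosomal mean was −0.14, −0.05 and −0.08 in WT/WT replicates 1 to 3 and 0.15 and 0.12 in replicates 4 and 5, while it was 0.13, 0.11, 0.11 and 0.07 in 304Q/304Q replicates 1 to 4 and −0.10 in replicate 5. These are the libraries parted by the first principal component. With 4 surrogate variables in DESeq2, the split of the ribosomal genes was 43 higher and 37 lower (median 0.0025), that of the proteasome 31 and 15 and that of the respiratory chain 44 and 35. With the GC trend removed the ribosomal genes were 61 higher and 19 lower (0.06). Leaving out 1 library moved these lists widely. Without WT/WT replicate 1 the ribosomal genes were 53 higher with none at an unadjusted p under 0.05 (median 0.03), and none was at that p without 304Q/304Q replicate 2. Without WT/WT replicate 4 they were 75 higher with 13 at that p (median 0.11), and 13 and 8 were found without 304Q/304Q and WT/WT replicate 5. For the proteasome the number higher at that p ran from 0 to 6 (6 without WT/WT replicate 5) and for the respiratory chain from 1 to 5 (5 without WT/WT replicate 4), with medians of 0.03 to 0.08 and 0.02 to 0.09. At 12 months the medians were −0.04, −0.01 and −0.11.

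The genes nearest to the function of ataxin-3 showed little. Of 27 genes for its partners 15 were higher and 12 lower. At an unadjusted p under 0.05, 2 were higher (2.52% of all genes), the aggresome deacetylase Hdac6 (0.19) and the ubiquitin-binding adaptor Faf1 (0.21). Vcp, the segregase that ataxin-3 binds, had 0.09 (unadjusted p 0.126). Among 73 deubiquitinases, Atxn3 included, 40 were higher and 33 lower, with Uchl1 (0.20) and Usp11 (0.15) among the 3 higher and Atxn3 among the 2 lower at an unadjusted p under 0.05, near the 2.52% and 2.94% of all genes. Without 304Q/304Q replicate 3 only 1 was higher. Of 42 autophagy genes, 36 antioxidant genes and 23 genes of Trp53 (p53) and its targets none reached that p, with medians of −0.01, 0.02 and −0.03. Heat shock proteins held 1 lower at that p (2.94% of all genes), Hspb8, a small chaperone that hands misfolded proteins to autophagy. Hspb8 had 393 to 466 normalized counts in the WT/WT group and 287 to 403 in 304Q/304Q mice (−0.34, unadjusted p 0.000618). Of 49 lysosomal genes 3 were higher at an unadjusted p under 0.05 (2.52% of all genes), Cln3 (0.34), Grn (0.16) and Mcoln1 (0.14). That number was 0 without 304Q/304Q replicate 4, 1 without WT/WT replicate 1 or 304Q/304Q replicate 1 or 3, and 5 without 304Q/304Q replicate 5. The Grn groups did not overlap but nearly touched, with 802 normalized counts as the highest WT/WT and 804 as the lowest knock-in value. Over all genes 0.473% were higher without overlap. Of the other polyglutamine and ataxia genes none of the 35 besides Atxn3 had an unadjusted p under 0.05.

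Genes that answer to glucocorticoids were mostly lower, and those that answer to activity spread widely in both directions. Of 17 glucocorticoid-responsive genes 15 were lower, and the median of −0.24 was the lowest among the lists with more than 2 genes tested. At an unadjusted p under 0.05, 2 were lower (2.94% of all genes), Sgk1 (−0.47) and Errfi1 (−0.24). The list's mean per mouse was 0.48, 0.11, −0.03, −0.34 and −0.22 in WT/WT and −0.07, −0.48, −0.27, −0.33 and −0.06 in 304Q/304Q mice, so the groups overlapped and the first WT/WT mouse was the highest. The 2 lower members were 8 without WT/WT replicate 4, 5 without WT/WT or 304Q/304Q replicate 5, 4 without 304Q/304Q replicate 2 or 3, and 1 without WT/WT replicate 1 or 2 or 304Q/304Q replicate 4. At an unadjusted p under 0.05, 2 of 22 immediate early genes were lower (2.94% of all genes). In all, 13 were lower and 9 higher, with a median of −0.11. Without WT/WT replicate 2 these were 10 lower and 12 higher (median 0.03), and without WT/WT replicate 3 or 304Q/304Q replicate 2 or 4 they were 11 and 11. The median ran from −0.26 (without WT/WT replicate 4) to 0.04 (without 304Q/304Q replicate 4). With surrogate variables in edgeR it was 0.05, with 13 of 22 higher, and the median of the glucocorticoid list was −0.07, with 10 of 17 lower. Arc, a cytoskeletal protein of active synapses, had 0.16 (unadjusted p 0.121). The 2 lower members were Nr4a3 and Fosl2, and Nr4a3 had 1034, 900.1, 904, 72.2 and 215 normalized counts in the WT/WT group and 294, 198, 309, 68.1 and 182 in 304Q/304Q mice. WT/WT replicates 1 to 3, the same that stood apart in the first principal component, were high and all other mice low. Fosl2 (−1.19) was likewise high in these 3 mice. At 12 months the glucocorticoid list had a median of −0.62, with 12 of 17 lower at an adjusted p of at most 0.05. Over all genes 922 of 12253 were lower at that adjusted p.

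Markers of tissue next to the cerebellum were read for each library. The 5 tested choroid plexus genes had a median of 0.82, and 0.00091 without the third 304Q/304Q library. Kl, a transmembrane protein of that epithelium, was at 473 normalized counts in this library and between 13.1 and 31.5 in the others. Ttr itself was called by DESeq2 (adjusted p 0.0198) but not by edgeR (0.612), and its log2 fold change of 6.53 became 1.94 without this library. Blood genes were all 5 higher (median 0.17) and none at an unadjusted p under 0.05. Without WT/WT replicate 3, 3 of them were at that p (median 0.46), and without 304Q/304Q replicate 5 only 2 were higher (median −0.0046). Meningeal markers were lower in 10 of 14 cases, none at that p.

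**Figure D4:**
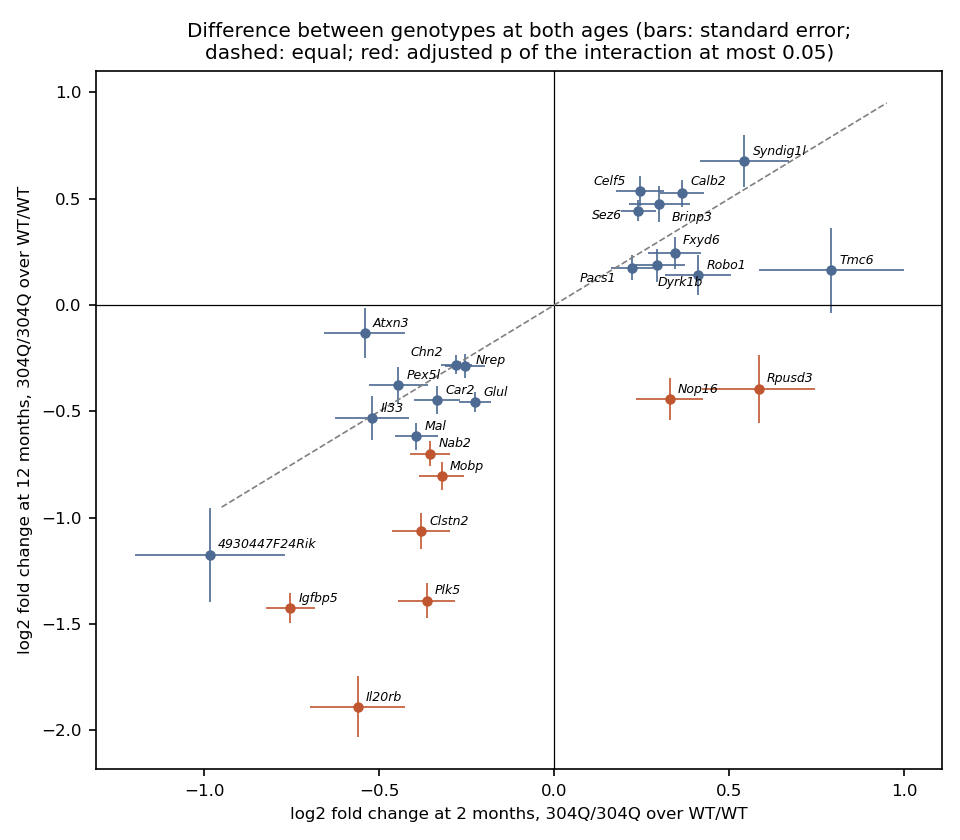
Log2 fold change of 304Q/304Q over WT/WT at 2 months (horizontal) and 12 months (vertical) with standard errors, for 27 named genes, Ttr and Gm39465 being outside the range shown. Points off the dashed line of equality and in red have an adjusted p of the interaction of at most 0.05, among them Igfbp5 (−0.75 and −1.42) and Il20rb (−0.56 and −1.89).

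The 2-month genes were then followed in the 12-month mice, which share no animal with them. Both differences came from 1 fit over all 20 libraries and used the same estimate of spread for each gene. The p-values of the 2 ages were therefore not independent. In the 10 libraries of 2 months alone, 3 of the 6 genes called by edgeR kept their call. Of the 29 genes named by rule, 16 lower and 13 higher at 2 months, 26 had the same direction at 12 months. At that age 22 had an adjusted p of at most 0.05 (12.5% of all genes), Nop16 among them in the opposite direction. All 6 genes called by edgeR at 2 months were among these 22, each in the same direction. For Chn2 (−0.28 and −0.28), Pex5l (−0.45 and −0.37) and Il33 (−0.52 and −0.53) the differences at 2 and 12 months were close to each other, while Igfbp5, Nab2, Mobp, Clstn2, Plk5, Il20rb and the lincRNA Gm39465 were lower still at 12 months with an adjusted p of the interaction of at most 0.05. Gm39465 had 81.3 ± 31.5 and 34.4 ± 17.5 normalized counts at 2 months and 95.2 ± 15.2 and 2.18 ± 1.71 at 12 months (SD, n = 5). Rpusd3, a pseudouridine synthase of mitochondria, and Nop16, a nucleolar protein of ribosome assembly, were higher at 2 months (0.58 and 0.33) and lower at 12 months (−0.39 and −0.44), with adjusted p-values of the interaction of 0.0213 and 0.00259.

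The remaining named genes were Tmc6, Pacs1, Dyrk1b, Celf5 and Brinp3, higher at 2 months with separate groups but no adjusted p under 0.05 by edgeR or DESeq2, and the non-coding 4930447F24Rik, which was lower (−0.98, adjusted p 0.103 by edgeR and 0.00524 by DESeq2). For 4930447F24Rik the WT/WT mice had 114, 119.6, 117, 153 and 196 normalized counts and the 304Q/304Q mice 74.9, 89.0, 69.6, 82.4 and 39.7. The groups did not overlap, and the log2 fold change was −1.17 at 12 months. Celf5, an RNA-binding protein of neurons, had 0.24 at 2 months and 0.54 at 12 months, and Brinp3, a neuronal protein induced by retinoic acid, 0.30 and 0.48.

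Over all genes, those with a smaller p at 2 months more often had the same direction at 12 months. The p-values of both ages again came from the shared fit. Among the 20 genes with the smallest p, 20 had the same direction at 12 months and 18 also an adjusted p of at most 0.05. For the 50 smallest these were 49 and 38, for the 100 smallest 92 and 62, and for the 200 smallest 169 and 95. The background was 53.0% of genes with the same direction and 8.94% with the same direction and an adjusted p of at most 0.05. Of the 669 genes with an unadjusted p under 0.05, 73.8% had the same direction and 187 genes also passed at 12 months, where 12.5% of all genes passed in either direction. Among the 360 lower genes 37.5% passed in the same direction, among the 309 higher genes 16.8%. The 11584 genes with a p of 0.05 or more had the same direction in 51.8% of cases. The genotype effects of the 2 ages depended on GC content in opposite ways, the median running from −0.04 in the GC-poorest bin to 0.03 in the GC-richest at 2 months and from 0.12 to −0.08 at 12 months, and with these trends removed the share with the same direction was 76.0% of the genes with an unadjusted p under 0.05 and 56.4% of all genes. The interaction of genotype and age passed the adjusted p for 230 genes (1.88%).

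**Figure D5:**
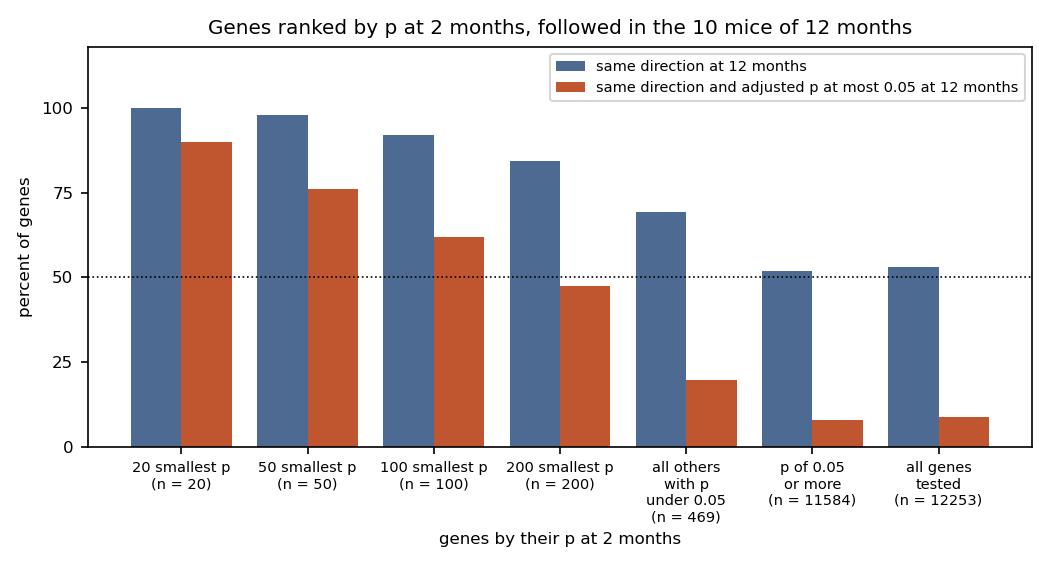
Percent of genes that had the same direction at 12 months (blue) and that had the same direction with an adjusted p of at most 0.05 there (red), by rank of their p at 2 months; the dotted line marks 50%. The share with the same direction falls from 100% of the first 20 genes to 51.8% of the 11584 genes with a p of 0.05 or more.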

How the data were processed

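RNA was measured by poly(A)-selected, stranded sequencing of cerebellum from separate mice. The authors aligned reads with STAR to GRCm38 and counted reads per gene with Rsubread, and deposited these raw counts for 20 libraries. STAR is version 2.4.5b per the submitters' processing notes; whether counting used strand is not given in the sources used here. The 12253 genes that averaged 50 or more counts in the 10 libraries of 2 months were fitted with edgeR 4.0.16 in R 4.3.3, with TMM scaling, 4 group means over all 20 libraries and the quasi-likelihood test; p-values were adjusted by Benjamini-Hochberg. Alternatives were DESeq2 1.42.0, surrogate variables (sva 3.50.0), other filters and scalings, removal of the GC trend, thinning, a replicate block and leaving out each library. The steps were tested on simulated data. The named genes were Atxn3, those past the adjusted p by edgeR or DESeq2, the 12 higher and 12 lower with the smallest p among genes without overlap, genes the study names at 2 months, and leading list members. The members and lists were chosen with earlier results of these data known. Some results are not reported here.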

Additional observations from a re-analysis of the deposited data

Results flagged for a closer look

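A value was noted where the gap between the highest or lowest of 5 mice and its nearest neighbour was over 0.71 of the group's range, as in 7 of 62 groups of 5 values tested; chance does this in about 1 of 20. Glul was at 15226 normalized counts in 304Q/304Q replicate 1 (nearest mouse 13728), and Fxyd6 at 1419 in the same library. Mobp was at 12433 in WT/WT replicate 2. Il20rb was at 204 in 304Q/304Q replicate 2. Tmc6 was at 99.8 and Ttr at 23173 in 304Q/304Q replicate 3. The total of 304Q/304Q replicate 1 was 27636687 counted reads, the next being 16606406.

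The difference between genotypes was not the same at both ages for 9 named genes, by the adjusted p of the interaction in edgeR. Given as the log2 difference at 12 months minus that at 2 months, the values were −0.67 for Igfbp5, −0.34 for Nab2, −0.48 for Mobp and −0.68 for Clstn2. They were −1.03 for Plk5, −1.33 for Il20rb, −0.98 for Rpusd3 and −0.77 for Nop16. For Gm39465 the value was −4.20, a fitted value that depends on the prior count because the 12-month 304Q/304Q libraries were near 0.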

How the results depend on the processing

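Igfbp5 kept its call in 33 of 33 alternatives, Mal and Chn2 in 32, Nab2 in 30, Calb2 in 25 and Pex5l in 15. The DEG count of 1 was 8 with DESeq2, 2 with DESeq2 and surrogate variables, 5 with edgeR and surrogate variables, 2 with a mean of at least 10 counts, 2 without a filter, 3 with the GC trend removed, 2 after thinning and 6 without a fold threshold. The 6 genes at the adjusted p were 22 with DESeq2, 53 and 47 with surrogate variables in DESeq2 and edgeR, and 16 with the GC trend removed. Without a filter 1829 genes had an unadjusted p under 0.05, and the share with an interval within 0.5 was 38.1% (69.4% with a mean of at least 10). The 230 interactions were 402 with DESeq2 and 147 with surrogate variables in edgeR. The 73.8% with the same direction at 12 months ran from 54.8% to 79.7% over the alternatives that kept every 2-month library. The cause of these shifts was not tested.

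Leaving out 1 library in turn gave 1 to 2 DEGs, 3 to 9 genes at the adjusted p (3 without 304Q/304Q replicate 3), 437 to 1048 at the unadjusted p, 127 to 309 without overlap, 158 to 554 interactions and 58.5% to 77.3% with the same direction at 12 months.

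With the replicate number as a replicate block, 1 gene passed the adjusted p and 127 interactions did. With the GC trend removed too these were 8 and 123, and 5 of the 6 genes were kept. The numbers do not pair the mice, same-numbered mice of 2 months having correlations of −0.320 to 0.049.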
